A study of Mus musculus with 6 samples.

Results

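The cystine import and glutathione synthesis genes described here are Slc7a11, Slc3a2, Gclc, Gclm, Gss, Gsr and G6pdx. They were chosen by name, and every non-control probe carrying one of these 7 names on the arrays was taken, which gave 13 of 41174 probes. RNA was measured on 6 single-colour Agilent arrays of primary mouse embryonic fibroblasts, which are cells grown out of mouse embryos. There were 2 arrays of untreated cells (0 h), 2 of cells exposed to 1 mM hydrogen peroxide (H2O2) for 2 h and 2 of cells exposed to 1 mM H2O2 for 4 h. All cells were primary cultures in DMEM with fetal calf serum, and the labels describe the 2 arrays of each time as independent experiments. Strain, genotype, passage and embryonic age are not given in the sources used here. No untreated cells were collected at 2 h or 4 h, so time in culture and exposure cannot be told apart. RNA came from whole cultures, so a change in which cells survived and a change of RNA per cell cannot be told apart either.

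Cells take up cystine, the oxidised dimer of cysteine, through an antiporter that releases glutamate. Its transporting light chain is Slc7a11 (xCT) and its membrane-anchoring heavy chain is Slc3a2 (4F2hc, CD98), which also serves other amino acid transporters. Cystine is reduced to cysteine inside the cell, glutamate-cysteine ligase (catalytic subunit Gclc, modifier subunit Gclm) joins it to glutamate in the rate-limiting step, and glutathione synthetase (Gss) adds glycine. Glutathione peroxidases spend glutathione to reduce H2O2, glutathione reductase (Gsr) restores it with NADPH, and glucose-6-phosphate dehydrogenase (G6pdx) opens the pentose phosphate pathway, a source of that NADPH. The transcription factors Nrf2, which binds antioxidant response elements, and ATF4, which binds amino acid response elements, are known regulators of genes in this pathway. Cultured fibroblasts depend on this route because culture medium holds its cysteine mostly as cystine.

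RefSeq promoter sequence (GRCm38.p6) was at hand for 5 of the 7 genes (Slc7a11, Slc3a2, Gclm, Gss and G6pdx). The 250 bases before the transcription start of both antiporter chains and of the ligase modifier are shown, because Slc7a11 had the largest change of the 7 genes, Slc3a2 is its partner, and the modifier carries a motif of the antioxidant response. Each reads 5′ to 3′ on the gene's strand, and capitals mark motif matches on either strand. The Slc7a11 window is chr3:50443614-50443863 (minus strand), the Slc3a2 window chr19:8713898-8714147 (minus strand) and the Gclm window chr3:122245307-122245556 (plus strand).
Slc7a11: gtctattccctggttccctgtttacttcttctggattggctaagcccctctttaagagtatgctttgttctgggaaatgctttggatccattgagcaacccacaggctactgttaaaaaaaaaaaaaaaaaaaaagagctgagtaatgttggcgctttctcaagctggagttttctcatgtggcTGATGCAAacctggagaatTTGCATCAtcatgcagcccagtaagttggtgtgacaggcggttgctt
Slc3a2: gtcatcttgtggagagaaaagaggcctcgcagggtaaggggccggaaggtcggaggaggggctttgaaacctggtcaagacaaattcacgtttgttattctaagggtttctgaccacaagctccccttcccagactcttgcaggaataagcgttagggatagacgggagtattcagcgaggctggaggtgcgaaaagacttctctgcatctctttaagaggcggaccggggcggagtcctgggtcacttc
Gclm: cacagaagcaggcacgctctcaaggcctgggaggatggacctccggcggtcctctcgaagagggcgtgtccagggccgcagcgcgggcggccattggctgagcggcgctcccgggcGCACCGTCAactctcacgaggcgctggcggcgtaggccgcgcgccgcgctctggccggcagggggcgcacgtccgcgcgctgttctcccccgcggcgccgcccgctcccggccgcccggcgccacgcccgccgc

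The motifs searched were the antioxidant response element core TGACNNNGC, the amino acid response element core TGATGNAA and the AP-1 site TGANTCA, on both strands. Slc7a11 held 2 amino acid response element cores in opposite orientation, TGATGCAA at 66 to 59 bases before the start and TTGCATCA at 47 to 40. Of 32851 mouse promoter windows of the same length, 3.45% held at least 1 such core and 0.0396% (13 windows) held 2 or more. Gclm held 1 antioxidant response element core, GCACCGTCA at 134 to 126 bases before the start, and G6pdx held 1, GCTCAGTCA at 57 to 49 bases before the start (chrX:74428881-74429130, minus strand). That core was in 10.2% of all windows, and the AP-1 site, present in 6.75% of them, was in none of the 5. Neither Slc3a2 nor Gss (chr2:155592811-155593060, minus strand) held any of the 3 motifs in this window. These matches describe letters only, and no binding was measured.

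In H2O2 the transporting chain Slc7a11 rose most of the 7 genes, about 3-fold at its brightest probe (3.07-fold at 2 h and 2.83-fold at 4 h). The catalytic ligase subunit Gclc and glutathione synthetase Gss rose moderately at both times, to 1.41-fold and 1.39-fold at 2 h and to 1.62-fold and 1.50-fold at 4 h. Gsr rose at 2 h by 1 of its 3 probes and at 4 h by all 3, and the modifier Gclm rose at 4 h (1.57-fold). The heavy chain Slc3a2 and G6pdx passed the test at neither time. These folds are relative to each array's 75th percentile of signal, and on that scale 6 of the 13 probes rose at 2 h and 8 of 13 at 4 h, with no probe falling, all 13 differences being above 0 at both times. Under spike-in scaling some differences were below 0. The rises came from 4 genes at 2 h and 5 at 4 h, some of them read by several probes. A dim Slc7a11 probe among the 2 h rises entered testing only through its 2 h arrays. With testing limited to probes above background on all arrays, which leaves that probe out, 5 member probes rose and none fell at 2 h. In that fit 5048 of all probes rose and 3540 fell, so that 58.8% of calls were rises. That percentage is a share of calls and not of probes tested. Over all 25886 probes tested, 21.2% rose at 2 h and 23% at 4 h, while 14.5% and 17.6% fell. The median change of the 13 probes was 0.42 (log2) at 2 h and 0.55 at 4 h, beside 0.10 and 0.06 over all probes tested. The arrays of treated and untreated cells did not overlap, with the treated ones higher, for 10 of 13 probes at 2 h and 10 of 13 at 4 h, against 46.1% and 41% of all probes. Both comparisons use the same 2 untreated arrays, so their values are not independent of each other. With the replicate number as a block, 9 probes rose at 2 h and 9 at 4 h, while the share of all probes that rose went up too, to 29.5% and 28.8% (18% and 21.5% fell). Without 2 h replicate 1 only 3 probes were called at 2 h, and normexp background correction with the 75th percentile left 1 probe at 2 h and 4 at 4 h, the brightest Slc7a11 probe among them.

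**Figure D1:**
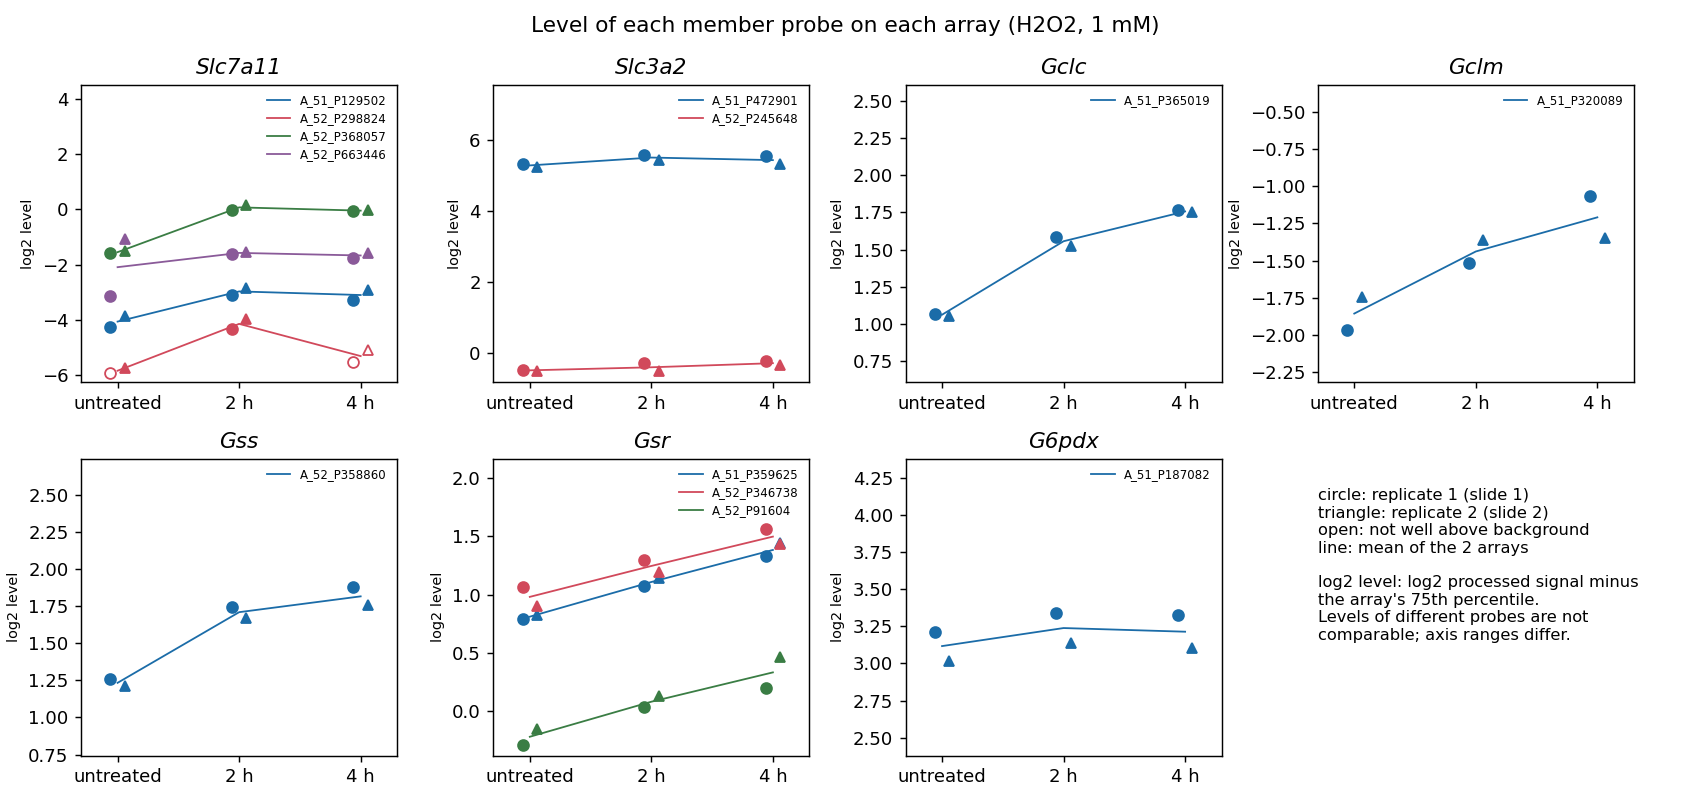
Level of each of the 13 probes on each array (y axis, log2 processed signal minus the array's 75th percentile; x axis, untreated, 2 h and 4 h in 1 mM H2O2; circles are replicate 1, triangles replicate 2, open symbols not well above background, lines join group means of 2 arrays). The brightest Slc7a11 probe stands 1.62 higher at 2 h and 1.50 higher at 4 h than in untreated cells, while the Slc3a2 lines are nearly flat, and the untreated arrays of 1 Slc7a11 probe lie far apart, at -3.12 and -1.06.

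Slc7a11, the cystine-transporting chain, was read by 4 probes. At its brightest probe (A_52_P368057) the log2 level was -1.57 and -1.52 in untreated cells, -0.022 and 0.17 at 2 h, and -0.075 and -0.014 at 4 h, where 0 is the array's 75th percentile. Before scaling, the processed signals behind these levels were 278 and 308, 665 and 761, and 640.5 and 747. Every treated array lay far above both untreated ones, and the 2 h and 4 h arrays overlapped. The change was 1.62 ± 0.086 (SE, n = 2 arrays per group; limma, Benjamini-Hochberg adjusted p = 0.000619) at 2 h and 1.50 ± 0.086 (adjusted p = 0.000832) at 4 h. These rises kept their call under every scaling, background correction, filter and left-out array that was run, with 1.17 at 2 h and 1.24 at 4 h under scaling to the spike-in controls.

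The other Slc7a11 probes lie upstream of it by the files' probe positions, at 0.638 kb, 6.347 kb and 77.083 kb from the probe nearest the 3′ end. Probe A_51_P129502, 6.347 kb away, read -4.26 and -3.86 in untreated cells, -3.10 and -2.84 at 2 h, and -3.29 and -2.91 at 4 h. It too was higher on every treated array, by 1.09 ± 0.21 (SE, n = 2; adjusted p = 0.0181) at 2 h and 0.96 ± 0.21 (adjusted p = 0.0229) at 4 h. Those calls were lost without untreated replicate 1 (0.89, adjusted p = 0.0683 at 2 h and 0.76, adjusted p = 0.0842 at 4 h), without either 2 h array (adjusted p = 0.0551 and 0.0861), without 4 h replicate 2 (adjusted p = 0.0823), and at both times under no scaling, spike-in scaling, normexp with the 75th percentile and no filter on dim probes.

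Probe A_52_P298824 was the only Slc7a11 probe with a difference between the treated times. It was designed to a cDNA clone, lies 77.083 kb from the 3′ probe and was dim, at -5.94 and -5.74 in untreated cells, -4.31 and -3.97 at 2 h, and -5.52 and -5.09 at 4 h. It was well above background on both 2 h arrays, on 1 of 2 untreated arrays and on neither 4 h array. It entered testing only through the 2 h arrays, where it was high, so its calls partly follow from that choice. The rise at 2 h was 1.69 ± 0.20 (SE, n = 2; adjusted p = 0.00448; 0.65 and adjusted p = 0.367 under normexp with the 75th percentile), and at 4 h the difference from untreated cells was 0.53 ± 0.20 (adjusted p = 0.0926; 0.0127 with the block). The 2 h level was at least 1.57-fold higher than the 4 h level, the 4 h side being a bound set by the lowest signal well above background. Without the bound, the 4 h level differed from the 2 h level by -1.17 ± 0.20 (SE, n = 2; adjusted p = 0.0160). That call was lost without 2 h replicate 2 (adjusted p = 0.0703) and without 4 h replicate 1 (adjusted p = 0.0522), and the sign turned (0.24) under the normexp background correction with the 75th percentile.

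Probe A_52_P663446, 0.638 kb from the 3′ probe, passed the test at neither time, and its untreated arrays disagreed. They read -3.12 and -1.06, while the treated arrays read -1.62 and -1.53 at 2 h and -1.77 and -1.56 at 4 h. The difference was 0.52 ± 0.68 (SE, n = 2; adjusted p = 0.581) at 2 h and 0.42 ± 0.68 (adjusted p = 0.652) at 4 h. Its direction rests on which untreated array is kept. Without untreated replicate 1 it was -0.51 (adjusted p = 0.0715) at 2 h and -0.60 (adjusted p = 0.0477) at 4 h, and without untreated replicate 2 it was 1.54 (adjusted p = 0.00732) and 1.45 (adjusted p = 0.00910).

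Slc3a2, the heavy chain shared by several amino acid transporters, was read by 2 probes. The brighter (A_51_P472901) read 5.32 and 5.23 in untreated cells, 5.57 and 5.43 at 2 h, and 5.54 and 5.31 at 4 h. Its 2 h arrays lay just above the untreated ones and its 4 h arrays overlapped them, with a difference of 0.22 ± 0.11 (SE, n = 2; adjusted p = 0.173; 0.0462 with the block) at 2 h and 0.15 ± 0.11 (adjusted p = 0.323) at 4 h. The 95% intervals of these differences ran from -0.061 to 0.50 and from -0.13 to 0.43. The second probe (A_52_P245648) read -0.46 and -0.51, then -0.29 and -0.51, then -0.23 and -0.34, with differences of 0.086 ± 0.096 (adjusted p = 0.518) at 2 h and 0.20 ± 0.096 (adjusted p = 0.160) at 4 h. Under spike-in scaling both probes were lower than in untreated cells at both times, and the second passed the test at 2 h (-0.37, adjusted p = 0.0248).

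The antiporter needs both chains, and their difference within an array does not depend on how arrays are scaled by a constant. Relative to the untreated mean, Slc7a11 minus Slc3a2 (brightest probes, log2) was -0.072 and 0.072 on the untreated arrays, 1.24 and 1.56 at 2 h, and 1.21 and 1.50 at 4 h. All 4 treated arrays lay above both untreated ones, by 1.38 on average. A two-sided exact permutation test over the 6 arrays gave p = 0.0667, which is the smallest p that 15 arrangements can give. The same difference between the ligase subunits, Gclc minus Gclm, was 0.12 and -0.12 in untreated cells, 0.18 and -0.030 at 2 h, and -0.086 and 0.18 at 4 h. The treated and untreated arrays overlapped there, with a mean shift of 0.062 (exact permutation p = 0.467).

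Gclc, the catalytic subunit of glutamate-cysteine ligase, was read by 1 probe at 1.07 and 1.05 in untreated cells, 1.59 and 1.53 at 2 h, and 1.76 and 1.75 at 4 h. The 3 groups did not overlap. The rise was 0.49 ± 0.057 (SE, n = 2; adjusted p = 0.00450) at 2 h and 0.70 ± 0.057 (adjusted p = 0.00186) at 4 h. The 4 h call held under every alternative that tested single probes. The 2 h call was lost under median centring (0.30, adjusted p = 0.0513), no scaling (0.16), spike-in scaling (0.043) and normexp with the 75th percentile (0.49, adjusted p = 0.0751). Between 2 h and 4 h Gclc differed by 0.20 ± 0.057 (adjusted p = 0.0620; 0.0382 with the block).

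Gclm, the modifier subunit that raises the ligase's activity, was dimmer and more variable. It read -1.97 and -1.75 in untreated cells, -1.52 and -1.36 at 2 h, and -1.07 and -1.35 at 4 h, so all treated arrays were higher. The difference was 0.42 ± 0.14 (SE, n = 2; adjusted p = 0.0748) at 2 h, and at 4 h Gclm rose by 0.65 ± 0.14 (adjusted p = 0.0217). The 4 h call was lost without untreated replicate 1 (adjusted p = 0.0919), without 4 h replicate 1 (adjusted p = 0.0735), and under median centring, no scaling, no filter on dim probes and spike-in scaling (0.39, adjusted p = 0.0914). By slide, the 4 h difference was 0.90 for replicate 1 and 0.40 for replicate 2.

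Gss, which completes glutathione, followed Gclc closely. Its probe read 1.26 and 1.21 in untreated cells, 1.75 and 1.67 at 2 h, and 1.88 and 1.76 at 4 h, with no overlap between untreated and treated arrays. The rise was 0.48 ± 0.073 (SE, n = 2; adjusted p = 0.00986) at 2 h and 0.58 ± 0.073 (adjusted p = 0.00520) at 4 h. At 2 h the call was lost without untreated replicate 2 (adjusted p = 0.0617), without 2 h replicate 1 (adjusted p = 0.0581), and under median centring, no scaling, spike-in scaling (0.024) and normexp with the 75th percentile, which also ended the 4 h call (adjusted p = 0.0772).

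Gsr, which regenerates glutathione from its oxidised form, was read by 3 probes near its 3′ end, of which A_51_P359625 and A_52_P91604 share 39 bases and so are not separate readings. Probe A_51_P359625 read 0.79 and 0.83 in untreated cells, 1.08 and 1.14 at 2 h, and 1.33 and 1.44 at 4 h, in 3 groups that did not overlap. It rose by 0.30 ± 0.069 (SE, n = 2; adjusted p = 0.0305) at 2 h and 0.57 ± 0.069 (adjusted p = 0.00475) at 4 h, and was 0.28 ± 0.069 higher at 4 h than at 2 h (adjusted p = 0.0447). Probe A_52_P346738, 586 bases from the 3′ probe, read 1.06 and 0.90, then 1.29 and 1.20, then 1.56 and 1.43, and probe A_52_P91604 read -0.29 and -0.15, then 0.031 and 0.13, then 0.20 and 0.46. At 2 h these differed from untreated cells by 0.27 ± 0.092 (adjusted p = 0.0849; 0.0196 with the block) and 0.30 ± 0.12 (adjusted p = 0.105; 0.0296 with the block). At 4 h they rose by 0.52 ± 0.092 (adjusted p = 0.0134) and 0.55 ± 0.12 (adjusted p = 0.0205). The 2 h direction turned for all 3 probes under no scaling (-0.072 to -0.036) and spike-in scaling (-0.19 to -0.15), and the 2 h call and the call between times were lost when any array of the groups compared was left out. The 4 h call of A_52_P346738 was lost without untreated replicate 2 or 4 h replicate 1, and that of A_52_P91604 without untreated replicate 1, untreated replicate 2 or 4 h replicate 2. Without scaling, none of the 3 probes passed the test at 4 h (0.26 to 0.31).

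G6pdx, the X-linked glucose-6-phosphate dehydrogenase, was read by 1 probe at 3.21 and 3.02 in untreated cells, 3.34 and 3.14 at 2 h, and 3.32 and 3.104 at 4 h. Treated and untreated arrays overlapped, replicate 1 being the higher in each group. The difference was 0.12 ± 0.13 (SE, n = 2; adjusted p = 0.494; 95% interval -0.22 to 0.46) at 2 h and 0.097 ± 0.13 (adjusted p = 0.585; -0.24 to 0.43) at 4 h.

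**Figure D2:**
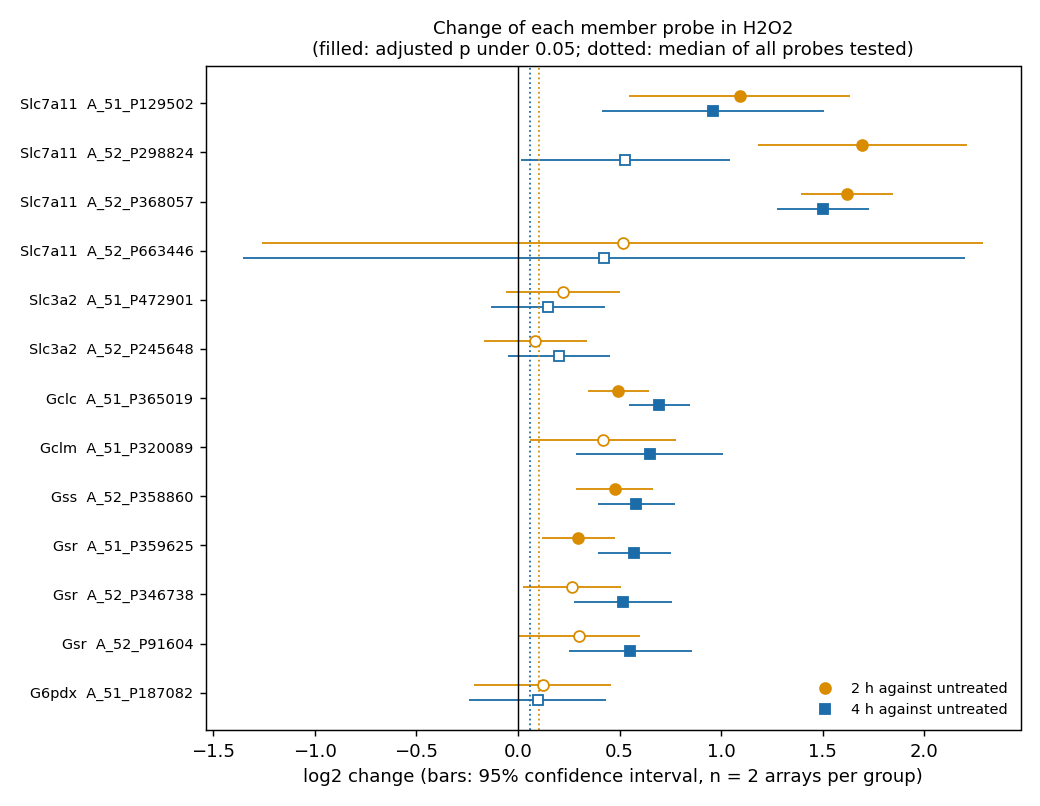
Change of each probe at 2 h (circles) and 4 h (squares) against untreated cells (x axis, log2 change; bars are 95% confidence intervals, n = 2 arrays per group; filled symbols have an adjusted p under 0.05; dotted lines mark the median of all probes tested). The brightest Slc7a11 probe sits at 1.62 and 1.50 with narrow intervals, Gclc, Gss and Gsr sit between 0.27 and 0.70, and both Slc3a2 probes and G6pdx have intervals that cross 0.

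The signal of whole arrays differed between groups, which touches every change of moderate size. The 75th percentile of signal was 826 and 883 in untreated cells, 675 and 677 at 2 h, and 674 and 754 at 4 h, so dividing by it raises the treated arrays. Scaled to the spike-in controls instead, the median of all probes tested moved to -0.35 at 2 h and -0.20 at 4 h, and with no scaling to -0.23 and -0.20. The share of rises among all calls at 2 h then went from 59.4% to 12.3% (spike-in) and 19.8% (no scaling), and at 4 h from 56.7% to 23.5% and 23.9%; with quantile normalization it was 43.0% and 45.6%, and with median centring 30.4% and 34.9%. Of the 13 probes, 2 rose and 1 fell at 2 h under spike-in scaling, and 4 rose and none fell at 4 h.

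Relative to the median of all probes under the same scaling, the values moved little over the 5 scalings compared. At 2 h the brightest Slc7a11 probe stood 1.52 to 1.59 above that median, Gclc 0.39 to 0.45, Gss 0.37 to 0.41, Gclm 0.31 to 0.38 and the 3 Gsr probes 0.16 to 0.31. At 4 h the corresponding ranges were 1.44 to 1.50 for Slc7a11, 0.64 to 0.72 for Gclc, 0.52 to 0.58 for Gss, 0.59 to 0.61 for Gclm and 0.46 to 0.62 for Gsr. Slc3a2 ranged from -0.034 to 0.12 at 2 h and from -0.077 to 0.24 at 4 h over its probes, and G6pdx from -0.024 to 0.017 and from 0.023 to 0.038. Between 11 and 12 of 13 probes lay above the median at 2 h, and between 12 and 13 of 13 at 4 h. These relative values are descriptions with no test.

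**Figure D3:**
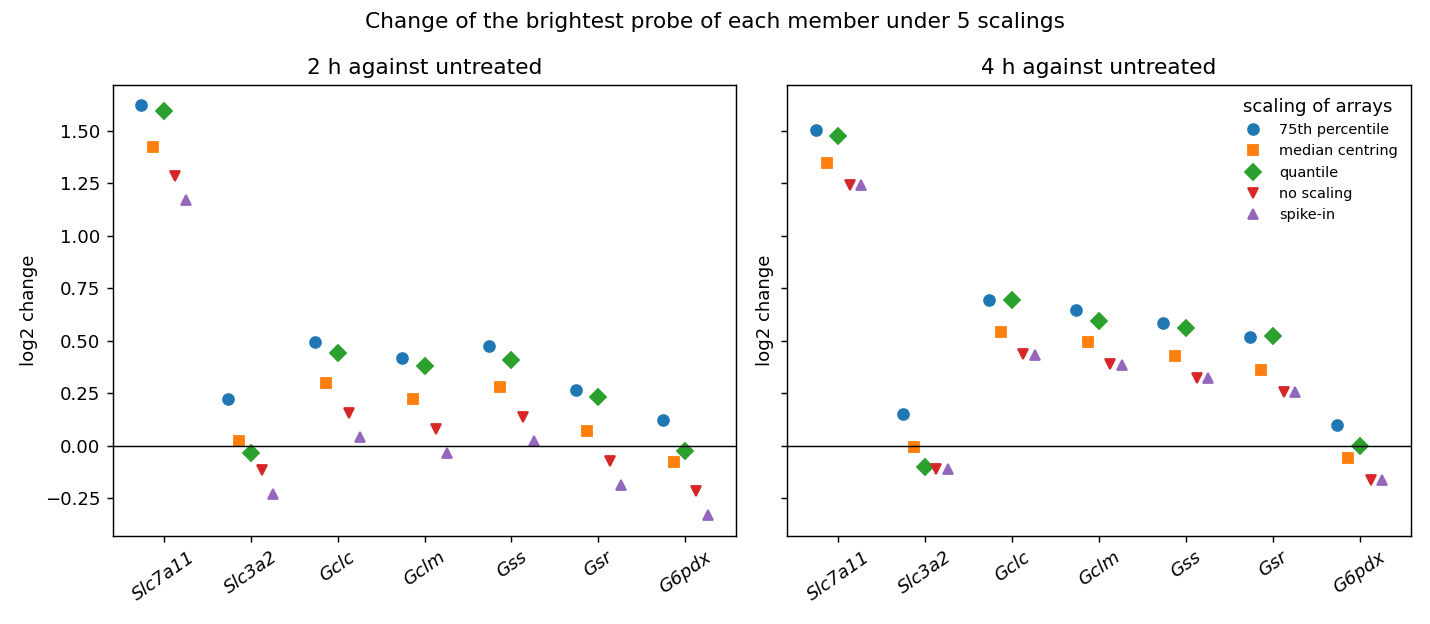
Change of the brightest probe of each gene (y axis, log2 change; x axis, gene) at 2 h and 4 h under 5 ways of scaling the arrays. Slc7a11 stays at 1.17 or more throughout, Gclc, Gclm, Gss and Gsr fall towards or below 0 at 2 h without scaling or with spike-in scaling but stay above 0 at 4 h, and Slc3a2 and G6pdx change sign with the scaling.

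Between 2 h and 4 h of exposure 1 of the 13 probes rose (Gsr A_51_P359625) and 1 fell (the dim Slc7a11 probe A_52_P298824), beside 13.3% and 14.8% of all probes tested. The median difference was 0.11, against -0.069 over all probes. The probe that fell entered testing only through its 2 h arrays, where it was high. With testing limited to probes above background on all arrays, which leaves that probe out, 2 member probes rose and none fell. In that fit 3399 of all probes rose and 3735 fell, so that 47.6% of calls, not of probes tested, were rises. With the block, 3 rose and 1 fell (16.2% and 20.7% of all probes), the added rises being Gclc and Gsr A_52_P346738 (adjusted p = 0.0263). Leaving out any 1 array ended the call of the Gsr rise, with differences from 0.22 to 0.33. Any call that remained was the fall of the dim Slc7a11 probe, with differences from -1.38 to -0.95. That call was lost too without 2 h replicate 2 or 4 h replicate 1. The brightest Slc7a11 probe differed by -0.12 ± 0.086 (SE, n = 2; adjusted p = 0.368), Gss by 0.11 ± 0.073 (adjusted p = 0.335), and Gclm by 0.23 ± 0.14 (adjusted p = 0.279).

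Changes in 4 lists of related genes are given by their counts, beside the share of all probes called. Normexp background correction with the 75th percentile ended 31 of the 38 calls that the naming rule took from these lists, and leaving out 1 array ended between 6 (4 h replicate 1) and 14 (untreated replicate 2). The calls of Chac1 and Slc3a1 against untreated cells at both times and of Slc7a7 at 2 h held under the 5 scalings, normexp and every left-out array.

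The list of genes that spend or break down glutathione held rises and falls. Of 41 tested probes of 27 genes, 9 (22%) rose and 3 (7.32%) fell at 2 h (median 0.21), when 21.2% and 14.5% of all probes did. At 4 h 12 (29.3%) rose and 3 (7.32%) fell (median 0.21), beside 23% and 17.6% of all probes. Chac1, which degrades glutathione inside the cell and is a known ATF4 target, fell by 1.28 ± 0.064 on the log2 scale (SE, n = 2; adjusted p = 0.000561) at 2 h and by 0.81 ± 0.064 (adjusted p = 0.00173) at 4 h. Its levels were 3.48 and 3.51 in untreated cells, 2.23 and 2.20 at 2 h, and 2.73 and 2.64 at 4 h, so it was lowest at 2 h. Chac1 fell at both times while Slc7a11 rose at its brightest probe, and what regulated either gene was not tested. Ggt1, the surface enzyme that splits extracellular glutathione, was not well above background in untreated cells or at 4 h. It entered testing only through its 2 h arrays, where it was high, so its call partly follows from that choice. As a bound, it was at least 2.87-fold higher at 2 h than in untreated cells. Without the bound the log2 difference was 2.65 ± 0.14 (adjusted p = 0.000611). Normexp ended that call and gave a log2 change of 0.78 (adjusted p = 0.376), which is below the bound.

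Gpx2, a glutathione peroxidase, fell by 0.66 ± 0.069 (SE, n = 2; adjusted p = 0.00329) at 2 h and was 1.09 ± 0.069 higher at 4 h than at 2 h (adjusted p = 0.00247). Normexp ended both calls, with -0.16 (adjusted p = 0.701) at 2 h and 0.89 (adjusted p = 0.0955) between the times. Esd, a hydrolase that frees glutathione from S-formylglutathione, rose by 0.48 ± 0.10 (adjusted p = 0.0227) at 2 h and 0.69 ± 0.10 (adjusted p = 0.00795) at 4 h. Its 2 h call was lost under all other scalings (0.032 under spike-in scaling), normexp and without either 2 h array or untreated replicate 2. Normexp also ended its 4 h call (adjusted p = 0.0884). The multidrug exporter Abcc4, which can carry glutathione conjugates, fell by 0.63 ± 0.056 (adjusted p = 0.00214) at 4 h, with -0.40 (adjusted p = 0.0923) under normexp and -0.13 (adjusted p = 0.474) at its other probe. Abcc5 of the same family was 0.43 ± 0.070 higher at 4 h than at 2 h (adjusted p = 0.0149), a call lost under normexp and without either 2 h array or 4 h replicate 1, and its other probes differed by -0.00056 and 0.56. Oplah, which recycles oxoproline to glutamate, rose by 0.48 ± 0.071 (adjusted p = 0.00795) at 4 h, while its other probe fell by 1.17 (adjusted p = 0.00247), and the first call was lost under median centring, no scaling, spike-in scaling (0.22, adjusted p = 0.0594), normexp and without untreated replicate 2. The widely expressed peroxidases Gpx1 and Gpx4, named here after their values were seen, differed at 2 h by 0.33 ± 0.14 (adjusted p = 0.124) and 0.33 ± 0.095 (adjusted p = 0.0545).

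Genes that supply cysteine and methionine by other routes held rises and falls as well. Of 48 probes of 25 genes, 10 (20.8%) rose and 9 (18.8%) fell at 2 h (median 0.094), near the 21.2% and 14.5% of all probes. At 4 h 6 (12.5%) rose and 12 (25%) fell (median -0.00027), beside 23% and 17.6%. Slc3a1, the heavy chain of the kidney cystine transporter, rose by 2.65 ± 0.19 (SE, n = 2; adjusted p = 0.00123) at 2 h and 3.52 ± 0.19 (adjusted p = 0.000751) at 4 h. It read -5.29 and -5.32 in untreated cells, where 1 of 2 arrays was well above background, then -2.93 and -2.38, then -1.75 and -1.82, so the treated arrays separated clearly while all levels stayed low. It entered testing through its treated arrays alone. Under normexp the rises were 1.32 (adjusted p = 0.0212) and 2.11 (adjusted p = 0.00646). Cbs, which begins the synthesis of cysteine from homocysteine, rose by 1.31 ± 0.089 (adjusted p = 0.00121) at 4 h, also from a level near background, and normexp ended the call (1.02, adjusted p = 0.0883). It entered testing only through its 4 h arrays, where it was high, so that call partly follows from this choice. Mtrr fell by 1.27 ± 0.16 (adjusted p = 0.00520) at 4 h at its brighter probe, which was not well above background on 1 of the 4 h arrays, while its other probe changed by 0.14 and normexp gave 0.013. Gnmt, a methyltransferase that consumes S-adenosylmethionine, rose by 0.64 ± 0.075 (adjusted p = 0.00450) at 2 h, a call lost under spike-in scaling (0.19, adjusted p = 0.0708) and normexp (0.48, adjusted p = 0.254), with 0.31 under no scaling.

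The other light chains that pair with Slc3a2 had 6 probes of 5 genes, of which 1 rose and 1 fell at 2 h (16.7% each, beside 21.2% and 14.5% of all probes) and 1 rose and none fell at 4 h (beside 23% and 17.6%). Slc7a7, a light chain for cationic and neutral amino acids, read 0.36 and 0.30 in untreated cells, 1.18 and 1.14 at 2 h, and 0.80 and 0.68 at 4 h. It rose by 0.83 ± 0.070 (SE, n = 2; adjusted p = 0.00185) at 2 h and 0.42 ± 0.070 (adjusted p = 0.0116) at 4 h. The size at 2 h was 0.38 under spike-in scaling, and the 4 h call was lost under no scaling (0.16, adjusted p = 0.148), spike-in scaling (0.15, adjusted p = 0.119), median centring (0.26, adjusted p = 0.107), normexp (0.35, adjusted p = 0.112) and without either untreated array. Slc7a6 fell by 0.41 ± 0.084 (adjusted p = 0.0222) at 2 h, but its other probe differed by -0.11 (adjusted p = 0.577), and the call was lost under normexp (-0.37, adjusted p = 0.162) and without any 1 of the untreated or 2 h arrays. The leucine transporter chain Slc7a5 differed by 0.042 ± 0.10 (adjusted p = 0.765) at 2 h, and it was named after its value was seen.

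Of 35 probes of 21 genes that supply NADPH, 9 (25.7%) rose and none fell at 2 h (median 0.11), and 9 (25.7%) rose and 2 (5.71%) fell at 4 h (median 0.035). Over all probes 21.2% rose and 14.5% fell at 2 h, and 23% and 17.6% at 4 h, with medians of 0.10 and 0.06. Pgd, the dehydrogenase of the pentose phosphate pathway that follows G6pdx, read 3.64 and 3.77 in untreated cells, 4.08 and 4.13 at 2 h, and 4.31 and 4.37 at 4 h. It rose by 0.41 ± 0.074 (SE, n = 2; adjusted p = 0.0161) at 2 h and 0.64 ± 0.074 (adjusted p = 0.00438) at 4 h, without overlap. The 2 h call was lost under all other scalings (-0.046 under spike-in scaling), normexp, and without either 2 h array or untreated replicate 1, and the 4 h call under no scaling (adjusted p = 0.0700) and normexp (adjusted p = 0.0632). Malic enzyme Me1 rose by 0.37 ± 0.057 (adjusted p = 0.0102) and 0.35 ± 0.057 (adjusted p = 0.0107), and both calls were lost under median centring, no scaling, spike-in scaling (-0.084 at 2 h and 0.085 at 4 h), normexp and without either untreated array, the first also without 2 h replicate 2. The mitochondrial enzymes Idh2 and Nnt rose by 0.27 ± 0.055 (adjusted p = 0.0213) and 0.25 ± 0.062 (adjusted p = 0.0360) at 2 h. Both calls were lost under every other scaling, normexp and each left-out array of the groups compared, with -0.18 (adjusted p = 0.0647) for Idh2 and a call in the opposite direction for Nnt (-0.20, adjusted p = 0.0399) under spike-in scaling. The other Nnt probes differed by 0.16 (adjusted p = 0.0949) and 0.030 (adjusted p = 0.698). H6pd, the dehydrogenase of the endoplasmic reticulum, fell by 0.49 ± 0.11 (adjusted p = 0.0266) at 4 h, by 0.75 under spike-in scaling, and lost its call under normexp (adjusted p = 0.0785) and without either untreated array or 4 h replicate 2.

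**Figure D4:**
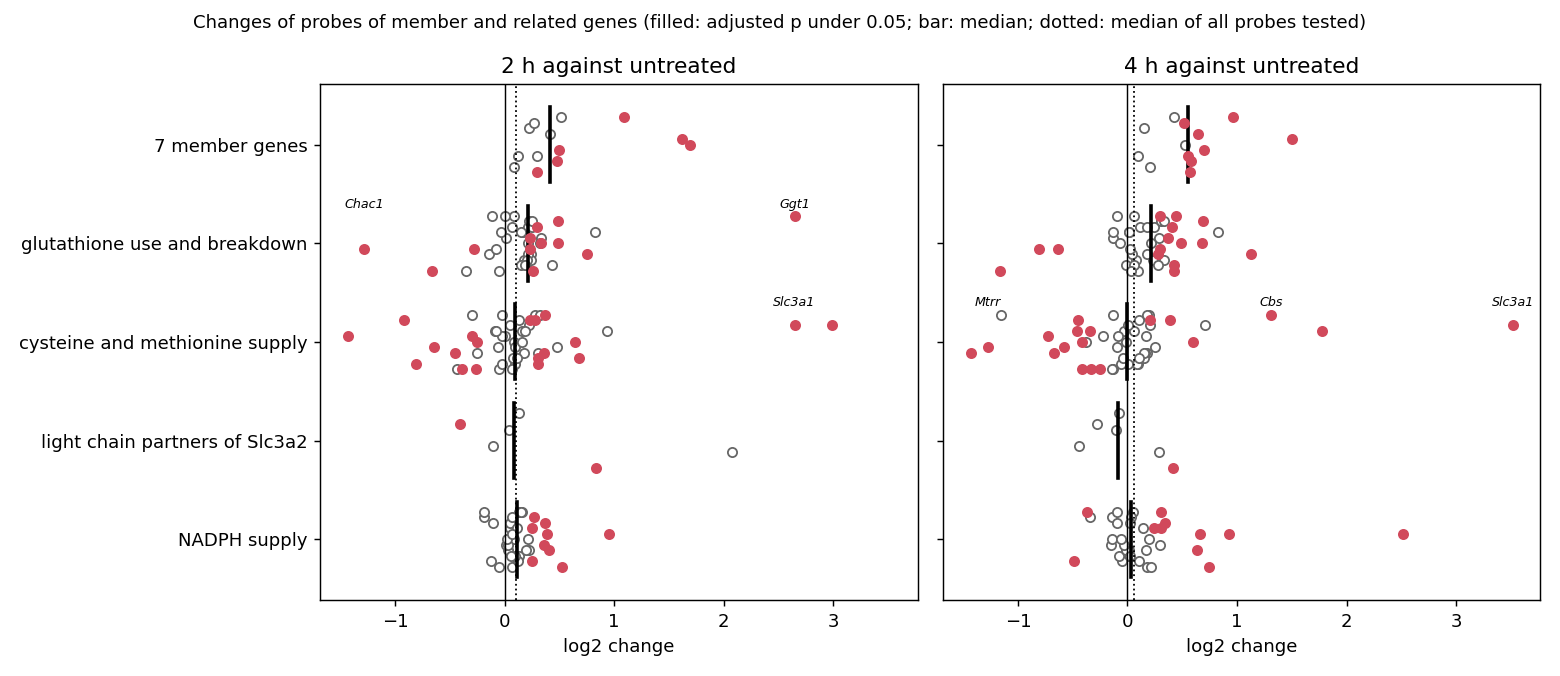
Change of every tested probe of the 7 genes and of the 4 related lists at 2 h and 4 h against untreated cells (x axis, log2 change; filled symbols have an adjusted p under 0.05, thick bars are list medians, dotted lines the median of all probes tested). The 13 probes have medians of 0.42 and 0.55 with no fall called. Each related list straddles 0 with medians from -0.091 to 0.21, and the NADPH supply list had no fall called at 2 h either.

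The genes whose 6-array profile lay nearest to each member, by Euclidean distance after subtracting each probe's mean, are given as a description. For Slc7a11 they were Nrcam (0.17), Sema7a (0.19) and Duox2 (0.21), and 87 of 21985 probes lay within 0.5 of it. The distance keeps the size of a change, so a gene with a large change has few probes near it. For Gclc they were Camk2d (0.032), Zfp655 (0.058) and Sbds (0.075), with 3476 probes within 0.5. Gss had Actr1b (0.046), Ormdl3 (0.047) and Ghitm (0.059), Gclm had Zfp715 (0.15), Itpka (0.16) and Gjb2 (0.16), and Gsr had Zfp622 (0.061), Slc44a1 (0.076) and Gfer (0.078). Within 0.5 lay 4951 probes for Gss, 2781 for Gclm and 5632 for Gsr. Slc3a2 (Fes, 0.027; Mfge8, 0.042; Galns, 0.043) and G6pdx (Abhd17a, 0.034; Agps, 0.036; Clpb, 0.056) sat among 9683 and 9395 probes within 0.5, so those neighbours are not particular to them.

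Across the arrays between 57.3% and 68.0% of spots were well above background, no spot was saturated, and replicate arrays correlated with r of 0.992 to 0.993 across probes. All 10 fibroblast markers were well above background on every array, with a summed log2 level of 9.76, 10.05 and 9.98 in untreated cells, at 2 h and at 4 h. Levels were summed before the logarithm, so the brightest markers weigh most. Pdgfra (1.63, 0.56 and 0.94) and Pdgfrb (5.34, 5.28 and 5.19) were lower at both times, and the other fibroblast markers were higher. Among markers of other cell types, Epcam, Cdh5, Myod1, Sox2 and Pou5f1 were well above background on no array. Counted over the full lists, these 5 included, 3 of 6 leukocyte, 3 of 5 epithelial, 3 of 6 endothelial, 3 of 4 muscle, 2 of 4 neural and none of 2 pluripotent markers were above it on all arrays. The summed log2 level in untreated cells, at 2 h and at 4 h was -1.03, -0.13 and -0.17 for the endothelial list, 0.38, 0.68 and 0.52 for the leukocyte list and 1.63, 1.98 and 1.95 for the epithelial list. It was 2.47, 2.68 and 2.52 for the muscle list, 1.37, 1.46 and 1.08 for the neural list and -4.75, -4.75 and -4.96 for the pluripotent list. Their part in the results was not tested. The 3 groups occupied positions 1, 2 and 3 of each slide in the order of time, so any effect of position cannot be told apart from that of time.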

How the data were processed

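Processed signals of 6 arrays were used. Spot intensity was extracted by the authors with Feature Extraction 9.5.3.1 (protocol GE1-v5_95_Feb07) after scanning on a G2505B instrument, per the file headers, and the deposited series values match that processed intensity within 5e-04. Log2 values were computed here from the deposited intensity. Each array's 75th percentile over 43379 non-control spots (of 45018) was subtracted, between 99 and 149 outlier-flagged spots per array were dropped, and 245 probes printed 10 times each were averaged over their spots. Each probe was kept as its own row. Testing covered the 25886 probes that both arrays of any 1 group showed well above background, with limma 3.58.1 in R 4.3.3. The model had 3 group means over all 6 arrays with variances moderated across probes (degrees of freedom: 3 residual, 1.69 prior). A check on simulated data used independent noise and added changes larger than those of most member probes. It does not bear on smaller changes or on arrays of a slide that deviate together. P-values were adjusted over all tested probes (Benjamini-Hochberg), and a probe was called at an adjusted p under 0.05. A bound ("at least") replaces a fold where neither array of 1 group showed the probe well above background. The adjusted p is that of the difference without the bound. Confidence intervals are 95%, and with 2 arrays per group their number limits the precision.

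Replicate numbers in the labels coincide with the slide in the file headers. Same-numbered arrays deviated together (correlations of 0.21, 0.19 and 0.21), so a fit with that number as a block was run, and its adjusted p is printed where it changed a call.

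The members and lists were chosen with earlier results of these data known. The genes named are all members, up to 4 genes of each list at each time with the largest change past the test (by the brightest probe), and the 3 nearest profiles of each member. Some genes that this rule names are not reported here. Alternatives covered scaling (quantile, median, none, 224 spike-in spots), normexp background correction with an offset of 50, filters, probe summaries, array weights, the block and each array left out. No source used here names the genome build of the probe positions, so only distances between probes are printed.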

Additional observations from a re-analysis of the deposited data

How the results depend on the processing

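The rise of Slc7a11 at its brightest probe at both times, and that of Gclc at 4 h, kept direction and call under all alternatives that tested single probes. The fit on the mean of a gene's probes was summarised by counts only. Of the values of single probes, 585 kept direction and call, 65 lost their call, 17 gained one and 53 changed sign. The cause of the changes was not tested, except that fewer arrays or fewer or more probes entered some fits by construction. Against 6, 8 and 2 member probes called in the main setting (2 h and 4 h against untreated, 4 h against 2 h), median centring called 3 at 2 h, no scaling called 2 at 2 h and 3 at 4 h, and spike-in scaling called 3, 4 and 5. Normexp with the 75th percentile called 1, 4 and 0, normexp with quantile normalization called 4 between the times, and no filter on dim probes called 5 at 4 h and 0 between the times. The brightest probe of each gene gave 3, 5 and 0 of 7, the mean of a gene's probes 4 at 4 h and 1 between the times, the replicate block 4 and a fit of only the 2 groups 1 between the times. Where limma called 0 between the times, 1 (normexp), 2 (no filter), 2 (brightest probe), 2 (without 2 h replicate 2) and 3 (without 4 h replicate 1) passed at an unadjusted p under 0.05. Over all probes, where 9235, 10510 and 7274 were called, spike-in scaling gave 15414 at 2 h, normexp with the 75th percentile 1695, 2767 and 1030, and no filter 5303, 6264 and 3381. Of the 130 probes of the related lists, where 42, 45 and 29 were called, median centring called 26 at 2 h, spike-in scaling 81 at 2 h, normexp with the 75th percentile 6, 8 and 2, no filter 14, 26 and 14, the brightest probe 26, 26 and 16, and the mean of probes 23 at 2 h and 28 at 4 h.

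Signs turned as follows. At 2 h, G6pdx was -0.026 under quantile normalization, -0.076 under median centring, -0.22 under no scaling, -0.33 under spike-in scaling and -0.0079 under normexp with quantile normalization. Slc3a2 A_51_P472901 was then -0.036 (quantile), -0.12 (no scaling), -0.23 (spike-in) and -0.031 (normexp with quantile), and A_52_P245648 was -0.11 (median), -0.25 (no scaling) and -0.37 (spike-in). Gsr A_51_P359625, A_52_P346738 and A_52_P91604 were -0.039, -0.072 and -0.036 under no scaling and -0.15, -0.19 and -0.15 under spike-in scaling, where Gclm was -0.034. At 4 h, G6pdx was -0.059 (median), -0.16 (no scaling), -0.17 (spike-in) and -0.00065 (normexp with the 75th percentile), Slc3a2 A_51_P472901 was -0.10 (quantile), -0.0075 (median), -0.11 (no scaling), -0.11 (spike-in) and -0.089 (normexp with quantile), and A_52_P245648 was -0.059 (no scaling) and -0.061 (spike-in). Between the times, G6pdx was 0.027 (quantile), 0.017 (median), 0.053 (no scaling), 0.17 (spike-in) and 0.026 (normexp with quantile), and Slc3a2 A_51_P472901 was 0.0051 (no scaling) and 0.12 (spike-in). Slc7a11 A_51_P129502, A_52_P368057 and A_52_P663446 were 0.059, 0.073 and 0.098 under spike-in scaling, and A_51_P129502, A_52_P298824 and A_52_P663446 were 0.31, 0.24 and 0.11 under normexp with the 75th percentile. Slc7a11 minus Slc3a2 within arrays moved from 1.38 to 1.60 under quantile normalization.

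With 1 array left out at a time, between 3 and 6 member probes were called at 2 h, 6 and 8 at 4 h, and 0 and 1 between the times. All probes called ranged from 4772 to 8297, 5735 to 8662 and 3169 to 5632, and list probes from 15 to 37, 23 to 40 and 9 to 21. The fewest list probes came without untreated replicate 1 (2 h and 4 h) and without 2 h replicate 1 (between the times). In these fits Slc7a11 A_52_P663446 ranged from -0.51 to 1.54 at 2 h, from -0.60 to 1.45 at 4 h and from -0.20 to 0.012 between the times, and Slc3a2 A_52_P245648 from -0.022 to 0.19 at 2 h. G6pdx ranged from -0.013 to 0.21 at 4 h and from -0.13 to 0.085 between the times, Slc7a11 A_51_P129502 from -0.32 to 0.062 and Slc3a2 A_51_P472901 from -0.19 to 0.044 between the times, and Gclc minus Gclm from -0.055 to 0.18. A group left with 1 array is assumed to vary like the others.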
